A study of Mus musculus with 48 samples.

Results

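The collagen genes of the mouse liver were taken as all genes whose symbol has the form of a collagen chain (Col, a type number, a and a chain number) on a probe set that carries no other gene symbol. There were 42 such genes of 18193 genes on the array, measured by 82 probe sets, and each gene was read on its brightest probe set. By the type of protein they encode, 11 were fibrillar, 6 were the type IV chains of basement membranes and 25 were other collagens. Liver RNA came from male C57BL/6J mice, 1 Affymetrix array being used for each animal, and the 4 groups held 12 mice each. All of them, the controls included, had first eaten a high-fat diet low in protein relative to carbohydrate (L-P/C-HF) over 10 weeks and were obese and glucose intolerant. They then received a high-fat diet high in protein relative to carbohydrate (H-P/C-HF) or stayed on L-P/C-HF, for 4 weeks (4-wk) or 2 days (2-d). The 4 groups are thus H-P/C-HF 4-wk, L-P/C-HF 4-wk, H-P/C-HF 2-d and L-P/C-HF 2-d. No group without the high-fat diet was analysed here, the 4-wk mice were also older, and they were killed on other days and after one more glucose tolerance test than the 2-d mice, so that duration cannot be told apart from age and handling. One array of the H-P/C-HF 2-d group, B25, which the methods name as an outlier, was left out. This leaves 11 mice there and 47 arrays in all.

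Collagens are built from 3 chains wound into a triple helix. Fibrillar types I, III and V form the tensile fibres of the liver, type IV forms the sheet-like network of basement membranes, and the others link fibres, anchor membranes or are shed as fragments. In the healthy liver, hepatic stellate cells and portal fibroblasts make most of the fibrillar chains, sinusoidal endothelial cells contribute type IV chains, and hepatocytes are a known source of type XVIII. Excess type I and III collagen is the hallmark of liver fibrosis.

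Values are the authors' RMA signals on a log2 scale, on which a difference of 1 unit is a doubling. Array medians lay between 6.73 and 6.91, and 28 of the 42 collagens were above the median of all probe sets (6.79) and 14 below it. Each change was tested in 1 limma fit over all 45037 probe sets, and a gene is said to have risen or fallen where its Benjamini-Hochberg adjusted p was under 0.05. Signals of different probe sets are not on a common scale, so levels are compared between groups only.

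The stretches upstream of the 3 fibrillar genes that are described most fully are given first, since 2 of them moved with duration and the other with diet. They are the 250 bases before the annotated start in the RefSeq promoter table of build GRCm38.p6, all on the plus strand, for Col3a1 (chr1:45311288-45311537), Col1a2 (chr6:4505368-4505617) and Col27a1 (chr4:63215162-63215411). Both strands were searched for the letters CCAAT, the core of the CCAAT box, for GGGCGG, that of the GC box, and for TATAAA, that of the box named after it, and capitals mark the matches.
Col3a1: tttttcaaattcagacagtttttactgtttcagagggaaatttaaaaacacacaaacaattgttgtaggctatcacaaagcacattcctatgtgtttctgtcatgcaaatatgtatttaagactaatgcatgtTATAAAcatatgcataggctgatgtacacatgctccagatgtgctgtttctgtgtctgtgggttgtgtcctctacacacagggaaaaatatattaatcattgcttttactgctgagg
Col1a2: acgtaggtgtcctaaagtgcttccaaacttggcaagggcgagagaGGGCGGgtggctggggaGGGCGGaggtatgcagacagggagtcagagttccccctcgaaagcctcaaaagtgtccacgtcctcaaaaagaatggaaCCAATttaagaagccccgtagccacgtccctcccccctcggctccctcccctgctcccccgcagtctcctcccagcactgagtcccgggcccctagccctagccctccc
Col27a1: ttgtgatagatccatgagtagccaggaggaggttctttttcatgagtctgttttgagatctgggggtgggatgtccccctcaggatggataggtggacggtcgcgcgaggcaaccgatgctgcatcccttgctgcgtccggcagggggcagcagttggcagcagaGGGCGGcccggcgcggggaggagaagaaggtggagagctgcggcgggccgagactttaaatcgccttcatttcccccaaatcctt
The Col3a1 stretch held 1 TATAAA match, at position -117 from the start. The Col1a2 stretch held 1 CCAAT match at -109 and 2 GGGCGG matches at -205 and -188, and the Col27a1 stretch held 1 GGGCGG match at -85. The 3 matched motifs do not overlap in these stretches. Over all 32851 promoter windows of the table, 33.8% held CCAAT, 32.7% held GGGCGG and 12.4% held TATAAA. Of 36 windows of 33 collagen genes, 13 held CCAAT, 21 held GGGCGG and 5 held TATAAA. A match is a run of letters and does not show that a factor binds.

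The main type IV genes Col4a1 and Col4a2, which encode the partner chains of the common basement membrane network, lie head to head on opposite strands of chromosome 8. Their annotated starts are at 11312826 (Col4a1, minus strand) and 11312805 (Col4a2, plus strand), so the first 22 bases of both genes are the same stretch read in opposite directions. The plus strand of chr8:11312801-11312830 is shown with these 22 bases in capitals.
Col4a1 and Col4a2: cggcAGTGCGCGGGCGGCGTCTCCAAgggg

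The first question was which collagens differed between 4-wk and 2-d. Averaged over the diets, 8 of 42 collagens rose and 1 fell, where 9.68% of all genes rose and 5.34% fell. The genes that rose were the fibrillar Col3a1, Col1a2 and Col5a2, the type IV pair Col4a1 and Col4a2, and Col14a1, Col6a3 and Col13a1 among the others, and Col18a1 fell. The median change of the 42 collagens was 0.02 on the log2 scale, beside -0.01 over all genes. The changes that passed reached 0.63, as the plot of changes by gene shows. By class, 3 of 11 fibrillar collagens rose (median change 0.06), 2 of 6 type IV collagens (median 0.0010) and 3 of 25 others (median 0.02), and the differences between classes were not tested. Among the 28 collagens above the median signal 7 rose and 1 fell, where 12.6% of all genes above it rose and 7.19% fell. These are whole-liver signals, in which more cells of a type and more RNA per cell cannot be told apart.

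**Figure D1:**
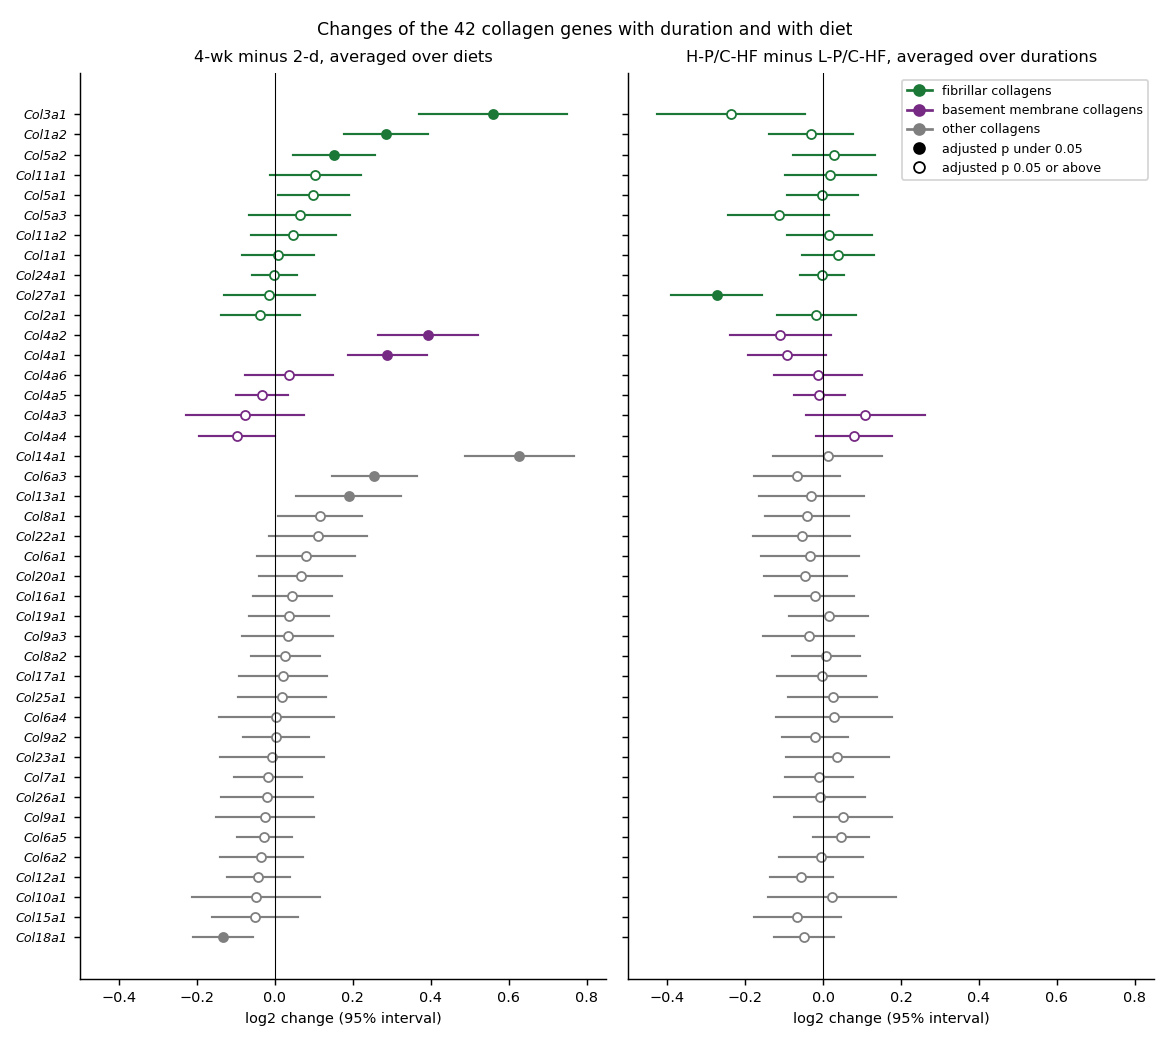
Log2 change of each of the 42 collagen genes on its brightest probe set, 4-wk minus 2-d averaged over diets (left) and the diet difference (H-P/C-HF less L-P/C-HF) averaged over durations (right). Points are limma estimates over 47 mice, lines their 95% intervals, colours the classes, and filled points passed the adjusted p of 0.05: 9 with duration and 1, Col27a1, with diet.

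Of the fibrillar collagens, Col3a1, the chain of type III collagen, changed most with duration. Its signal ran from 7.61 through a median of 8.17 to 8.70 in H-P/C-HF 4-wk mice, against 7.19, 7.45 and 7.97 in H-P/C-HF 2-d mice. In L-P/C-HF 4-wk mice it ran from 7.61 through 8.24 to 9.16, against 7.31, 7.86 and 8.38 in L-P/C-HF 2-d mice. The groups overlapped in both diets, although all 12 H-P/C-HF 4-wk mice and 11 of 12 L-P/C-HF 4-wk mice lay above the median of the 2-d mice on their diet. Averaged over diets Col3a1 rose by 0.56 ± 0.09 on the log2 scale (SE), or 1.47-fold (limma, adjusted p = 1.23e-05). The rise was 0.60 in H-P/C-HF (adjusted p = 0.0026) and 0.52 in L-P/C-HF (adjusted p = 0.0075). A second, dimmer Col3a1 probe set rose less, by 0.21 (adjusted p = 0.00114).

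Col1a2 encodes the second chain of type I collagen, the main protein of liver fibres. Its signal had a lowest value of 8.74, a median of 9.21 and a highest of 9.53 in L-P/C-HF 4-wk mice, against 8.69, 8.85 and 9.10 in L-P/C-HF 2-d mice. In H-P/C-HF it was 8.81, 9.12 and 9.44 in 4-wk mice, against 8.46, 8.87 and 9.20 in 2-d mice. The ranges overlapped, with 11 of 12 4-wk mice of each diet above the 2-d median. Col1a2 rose by 0.34 ± 0.08 in L-P/C-HF (limma, adjusted p = 0.00219) and by 0.28 ± 0.05 averaged over diets (adjusted p = 7.8e-05). In H-P/C-HF the change was 0.23 ± 0.08 and did not pass (adjusted p = 0.0539), and the changes in both diets did not differ detectably (difference -0.10, 95% interval -0.32 to 0.11). The other 2 probe sets of Col1a2 had changes of 0.06 and 0.04 that did not pass, and followed the brightest one over mice with a Pearson r of only -0.09 each.

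Col1a1, the first chain of type I collagen, gave a different answer on each of its 2 probe sets. Both had mean signals (6.64 and 6.35) below the median of 6.79 over all probe sets. Over mice, with the group means removed, they followed each other with a Pearson r of only -0.0069. On the brighter one the medians were 6.67 in H-P/C-HF 4-wk, 6.62 in L-P/C-HF 4-wk, 6.65 in H-P/C-HF 2-d and 6.53 in L-P/C-HF 2-d mice, with ranges that covered each other almost wholly. Its change with duration was 0.0073 (95% interval -0.09 to 0.10). On the dimmer one the lowest, median and highest values were 6.22, 6.33 and 6.75 in H-P/C-HF 4-wk mice, against 5.66, 6.20 and 6.30 in H-P/C-HF 2-d mice. In L-P/C-HF they were 5.97, 6.46 and 7.06 in 4-wk mice, against 6.04, 6.32 and 6.63 in 2-d mice. Both pairs overlapped, and on this probe set Col1a1 rose by 0.21 ± 0.06 averaged over diets (limma, adjusted p = 0.0163). Col1a1 is not among the 8 genes counted above, which rest on the brightest probe sets.

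**Figure D2:**
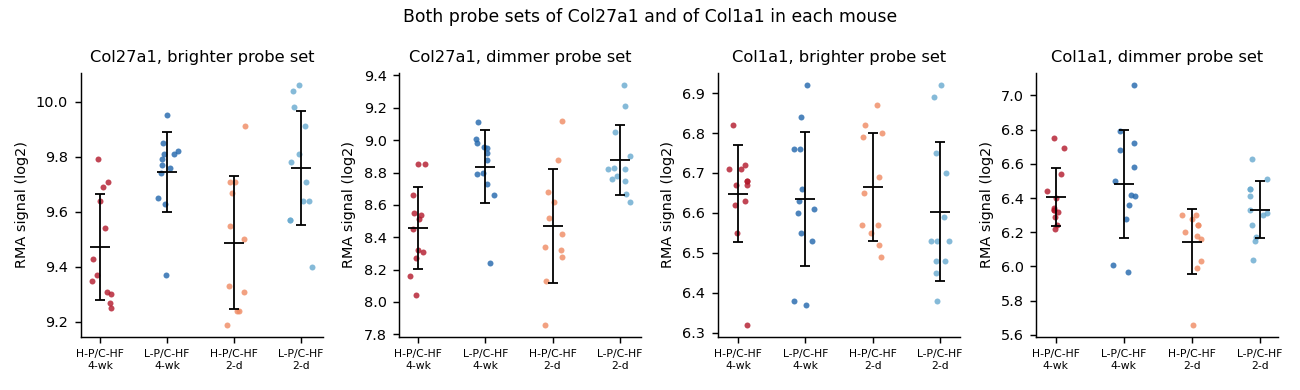
RMA signal (log2) in each of 47 mice for the brighter and the dimmer probe set of Col27a1 and of Col1a1, with the mean and SD of each group (n = 12, and 11 in H-P/C-HF 2-d). Both Col27a1 probe sets have lower means on H-P/C-HF than on L-P/C-HF at each duration, whereas of the Col1a1 probe sets only the dimmer one passed with duration (0.21, against 0.0073 for the brighter), each panel having its own scale.

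Col5a2, a chain of type V collagen, which starts and limits the growth of type I fibres, rose by 0.15 ± 0.05 averaged over diets (limma, adjusted p = 0.0383). Its medians were 7.07 in H-P/C-HF 4-wk and 6.96 in L-P/C-HF 4-wk mice, against 6.92 in H-P/C-HF 2-d and 6.86 in L-P/C-HF 2-d mice, and the ranges overlapped widely. A second Col5a2 probe set had a change of -0.09 and did not pass (adjusted p = 0.514). The other type V chains did not pass, with changes of 0.10 for Col5a1 (adjusted p = 0.144) and 0.06 for Col5a3 (adjusted p = 0.583). Col2a1, Col11a1, Col11a2 and Col24a1, chains known mainly from cartilage and bone, lay between -0.04 and 0.10, and none passed.

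Both common type IV chains rose and the rarer ones did not pass. Col4a1 ranged from 8.53 through a median of 8.95 to 9.17 in H-P/C-HF 4-wk mice, against 8.40, 8.68 and 8.91 in H-P/C-HF 2-d mice. In L-P/C-HF it ranged from 8.86 through 9.07 to 9.25 in 4-wk mice, against 8.52, 8.76 and 9.02 in 2-d mice. The ranges overlapped in both diets, and all 12 L-P/C-HF 4-wk mice were above the median of the L-P/C-HF 2-d mice. Col4a1 rose by 0.27 in H-P/C-HF (limma, adjusted p = 0.0132), by 0.31 in L-P/C-HF (adjusted p = 0.0023) and by 0.29 ± 0.05 averaged over diets (adjusted p = 2.05e-05). A second, dimmer Col4a1 probe set had means of 8.32 in H-P/C-HF 4-wk and 7.97 in H-P/C-HF 2-d mice. In L-P/C-HF its means were 8.38 in 4-wk and 8.22 in 2-d mice. This dimmer probe set varied more within the groups than the brightest one (SD 0.33 against 0.17). It followed the brightest one over mice with a Pearson r of only 0.27, and its test is not given here.

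Col4a2 behaved in the same way at its own level. It ranged from 7.85 through a median of 8.20 to 8.54 in H-P/C-HF 4-wk mice, against 7.30, 7.75 and 8.14 in H-P/C-HF 2-d mice, and from 7.83 through 8.27 to 8.79 in L-P/C-HF 4-wk mice, against 7.70, 7.87 and 8.28 in L-P/C-HF 2-d mice. In every H-P/C-HF 4-wk mouse, and in 11 of 12 L-P/C-HF 4-wk mice, the signal exceeded the 2-d median. The rise was 0.41 in H-P/C-HF (limma, adjusted p = 0.00228), 0.37 in L-P/C-HF (adjusted p = 0.00523) and 0.39 ± 0.06 averaged over diets (adjusted p = 7.95e-06). The rarer chains Col4a3, Col4a4, Col4a5 and Col4a6, known from the basement membranes of kidney, lung and other epithelia, had changes of -0.08, -0.10, -0.03 and 0.04, and none passed. The class therefore split into a pair that rose and 4 chains near 0, which its median hides: over the 4 type IV genes above the median signal the median was 0.16.

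**Figure D3:**
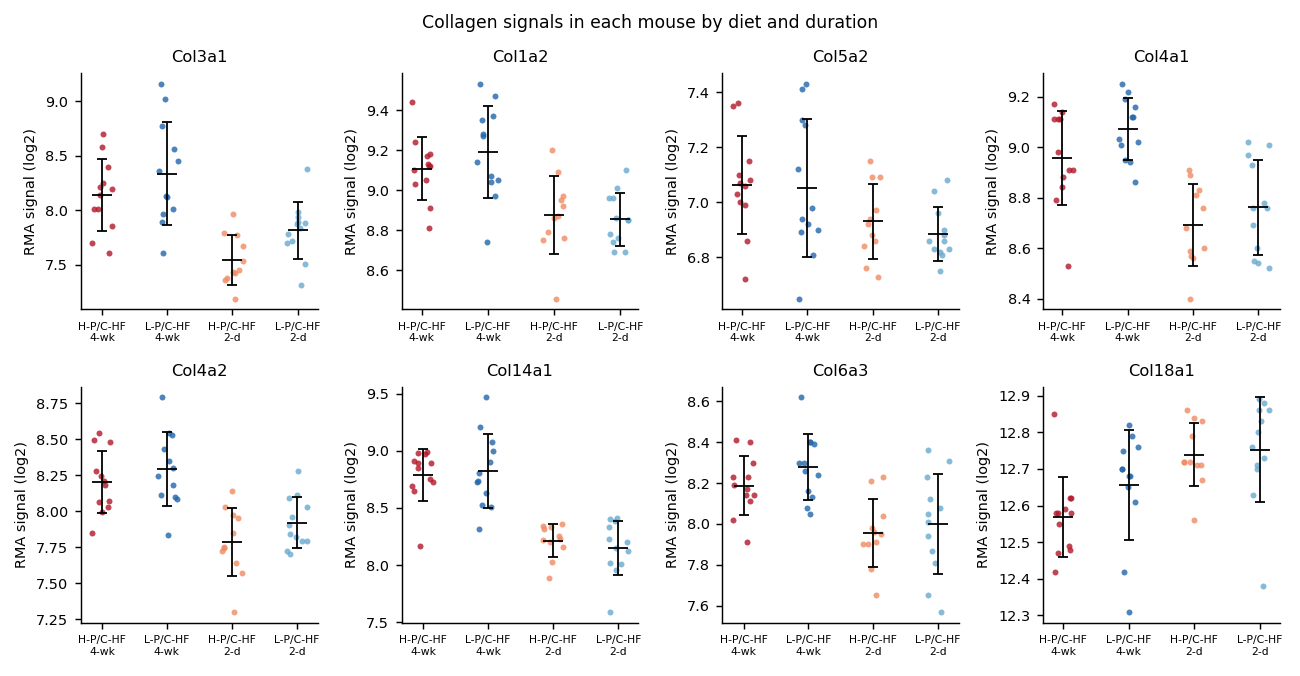
RMA signal (log2) of 8 of the 9 collagens that changed with duration, in each of 47 mice, with the mean and SD of each group (n = 12, and 11 in H-P/C-HF 2-d). The 4-wk groups lie above the 2-d groups for 7 genes, with overlap in each, and below them for Col18a1, whose group means span only 12.57 to 12.75.

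Among the other collagens Col14a1 changed most, and by more than any other of the 42. It encodes type XIV collagen, which sits on the surface of fibres and has been used as a stellate cell marker in mouse liver. Col14a1 ranged from 8.17 through a median of 8.87 to 8.99 in H-P/C-HF 4-wk mice, against 7.89, 8.23 and 8.36 in H-P/C-HF 2-d mice. In L-P/C-HF it ranged from 8.32 through 8.78 to 9.47 in 4-wk mice, against 7.59, 8.18 and 8.41 in 2-d mice. In each diet the 4-wk and 2-d ranges overlapped only through the lowest 4-wk values. Col14a1 rose by 0.58 ± 0.10 in H-P/C-HF (limma, adjusted p = 8.11e-05), by 0.68 ± 0.10 in L-P/C-HF (adjusted p = 2.48e-06) and by 0.63 ± 0.07, or 1.54-fold, averaged over diets (adjusted p = 1.43e-09). Its 2 further probe sets rose by 0.67 and 0.66.

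Col6a3, a chain of the beaded filaments of type VI collagen, was the only type VI chain to pass. Its values were 8.05, 8.28 and 8.62 in L-P/C-HF 4-wk mice (lowest, median and highest), against 7.57, 8.03 and 8.36 in L-P/C-HF 2-d mice. In H-P/C-HF they were 7.91, 8.18 and 8.41 in 4-wk mice, against 7.65, 7.95 and 8.23 in 2-d mice. Overlap remained in both diets. Col6a3 rose by 0.28 in L-P/C-HF (limma, adjusted p = 0.0153) and by 0.25 ± 0.05 averaged over diets (adjusted p = 0.000465), while its change of 0.23 in H-P/C-HF did not pass (adjusted p = 0.061). Col6a1 and Col6a2, which join it in the same molecule, had changes of 0.08 and -0.04 and did not pass.

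Col13a1, a membrane-spanning collagen, rose by 0.19 ± 0.07 averaged over diets (limma, adjusted p = 0.0439) and in neither diet alone. Its medians were 6.79 in H-P/C-HF 4-wk and 6.78 in L-P/C-HF 4-wk mice, against 6.53 in H-P/C-HF 2-d and 6.60 in L-P/C-HF 2-d mice, with wide overlap. Col18a1, whose type XVIII protein gives rise to the fragment endostatin, was the only collagen to fall. It ran from 12.42 through a median of 12.58 to 12.85 in H-P/C-HF 4-wk mice, against 12.56, 12.72 and 12.86 in H-P/C-HF 2-d mice. In L-P/C-HF it ran from 12.31 through 12.69 to 12.82 in 4-wk mice, against 12.38, 12.78 and 12.89 in 2-d mice. The ranges nearly coincided and the shift is small: it fell by 0.17 in H-P/C-HF (limma, adjusted p = 0.0479) and by 0.13 ± 0.04 averaged over diets (adjusted p = 0.0103), with a change of -0.10 in L-P/C-HF that did not pass (adjusted p = 0.365). A second Col18a1 probe set also fell by 0.13 (adjusted p = 0.0407). Col15a1, its nearest relative, had a change of -0.05 that did not pass (adjusted p = 0.607).

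Within the diets taken one at a time, 4 collagens rose and 1 fell in H-P/C-HF, where 4.16% of all genes rose and 1.87% fell. In L-P/C-HF 6 rose and none fell, where 4.76% of all genes rose and 1.25% fell, and no collagen was lower at an unadjusted p under 0.05 in limma, where 5.22% of all genes were. The rises that passed in L-P/C-HF but not in H-P/C-HF, those of Col1a2 and Col6a3, are not shown to differ between diets. The test of that difference passed for none of the 42 collagens and for 0% of all genes, and 1 collagen, Col6a5, had a negative difference at an unadjusted p under 0.05 (-0.17, p = 0.0228 in limma), as 1.08% of all genes had. Col6a5 is dim, with a mean signal of 4.09 beside a median of 6.79 over all probe sets.

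The second question was whether the switch of diet itself changed the collagens. At 4-wk none of 42 collagens passed, nor did any gene (0%), and 1 collagen was lower at an unadjusted p under 0.05 in limma, where 2.16% of all genes were. At 2-d none passed, where 0.0165% of all genes did, and at an unadjusted p under 0.05 2 collagens were lower (1.62% of all genes) and 1 was higher (2.04%). The study, with another test, lists Col3a1 among the target genes of an upstream regulator in its 2-d data. That regulator analysis took the genes which the study called different between the diets. Here Col3a1 is among the collagens that did not pass at 2-d, with means of 7.54 in H-P/C-HF and 7.82 in L-P/C-HF mice. The median collagen change with H-P/C-HF was -0.03 at 4-wk and -0.0037 at 2-d, beside -0.02 and 0.0059 over all genes. The 95% intervals of the diet effects of single collagens reached from -0.46 to 0.31 at 4-wk and from -0.55 to 0.34 at 2-d.

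With both durations averaged, 1 collagen passed, Col27a1, where 0.033% of all genes were lower in H-P/C-HF and 0.044% higher. Col27a1 encodes type XXVII collagen, a fibrillar collagen known from cartilage. On its brighter probe set the lowest, median and highest values were 9.25, 9.40 and 9.79 in H-P/C-HF 4-wk mice, against 9.37, 9.78 and 9.95 in L-P/C-HF 4-wk mice. At 2-d they were 9.19, 9.50 and 9.91 in H-P/C-HF mice, against 9.40, 9.74 and 10.06 in L-P/C-HF mice. The groups overlapped, but 11 of 12 H-P/C-HF mice at 4-wk and 10 of 11 at 2-d were below the median of L-P/C-HF mice. Col27a1 fell by 0.27 ± 0.06 on the log2 scale in H-P/C-HF averaged over durations (limma, adjusted p = 0.0434).

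The Col27a1 difference was also taken at each duration. It was -0.28 at 4-wk and -0.27 at 2-d, and neither passed alone (limma, adjusted p = 0.999 and 0.995), while the difference between them was -0.0031 (95% interval -0.24 to 0.23). The dimmer probe set of Col27a1 gave 8.04, 8.48 and 8.85 in H-P/C-HF 4-wk mice, against 8.24, 8.90 and 9.11 in L-P/C-HF 4-wk mice. At 2-d it gave 7.86, 8.42 and 9.12 in H-P/C-HF mice, against 8.62, 8.82 and 9.34 in L-P/C-HF mice. All 12 H-P/C-HF mice at 4-wk and 9 of 11 at 2-d were below the median of L-P/C-HF mice, and averaged over durations this probe set fell by 0.39 ± 0.07 (limma, adjusted p = 0.0125). The 2 probe sets followed each other over mice with a Pearson r of 0.75. Col27a1 did not pass with duration (change -0.02). The call on the brighter probe set was lost without arrays A01, A09 and A24, which the methods describe as of low correlation (adjusted p = 0.0612), where the change was still -0.27. Over 12 alternatives the change lay between -0.33 and -0.26 and passed under 10.

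After Col27a1 the collagen with the smallest p for diet was Col3a1, with -0.24 ± 0.09 averaged over durations (limma, unadjusted p = 0.0153, adjusted p = 0.958). Its second probe set had a diet change of -0.0049. Col1a2, Col4a1 and Col4a2 had diet changes of -0.03, -0.09 and -0.11, and Col14a1 of 0.01, and none passed. At 2-d Col6a5, a rare type VI chain of low signal (mean 4.09), was 0.13 higher in H-P/C-HF mice without passing (limma, unadjusted p = 0.0136).

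Genes that act on collagen or lie beside it in the matrix were counted next, for 4-wk minus 2-d averaged over diets. The shares over all genes in this comparison were 9.68% higher and 5.34% lower, with a median change of -0.01, and the differences between lists were not tested. These lists were chosen with earlier results of these data known. Of 19 measured matrix partners 8 rose and none fell, with a median change of 0.15. They included Lum (0.95) and Dcn (0.64), small proteoglycans that coat fibres, Sparc (0.81), which binds collagen, and Postn (0.53), while Fn1, fibronectin, had a change of -0.08 that did not pass (limma, adjusted p = 0.0885). The laminin chains Lama4 (0.37) and Lamb1 (0.19) and nidogen Nid1 (0.31), which join type IV collagen in basement membranes, rose. Most of the other basement membrane genes of this list (Lama2, Lama5, Lamb2, Lamc1, Hspg2 and Nid2) did not pass. Of 14 genes of TGF-beta and PDGF signalling 6 rose and none fell, with Tgfb1 at 0.56 and Ccn2, connective tissue growth factor, at 0.92. Of 16 genes that modify and fold collagen 1 rose and 2 fell: Crtap, part of the prolyl 3-hydroxylase complex, by 0.25, whereas Ppib, cyclophilin B of that complex, fell by 0.17 and Mia3, needed for procollagen export, fell by 0.17. Serpinh1, the collagen chaperone, had a change of 0.06 that did not pass.

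Of 10 genes for procollagen cleavage and crosslinking 1 rose, where 9.68% of all genes did. It was Pcolce2 (0.31), an enhancer of procollagen processing, while the crosslinking enzyme Lox had 0.06 (limma, adjusted p = 0.337). Of 15 genes for collagen breakdown and its inhibitors 3 rose and none fell: Timp3, an inhibitor held in the matrix, by 0.78, and the metalloproteinases Mmp19 and Mmp14 by 0.30 and 0.20. Timp1, the inhibitor that commonly marks fibrosis, had 0.02 and did not pass. Of 8 collagen receptors 2 rose, the integrin chain Itgb1 (0.43) and the immune inhibitory receptor Lair1 (0.18). For diet averaged over durations none of these 6 lists had a gene that passed.

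**Figure D4:**
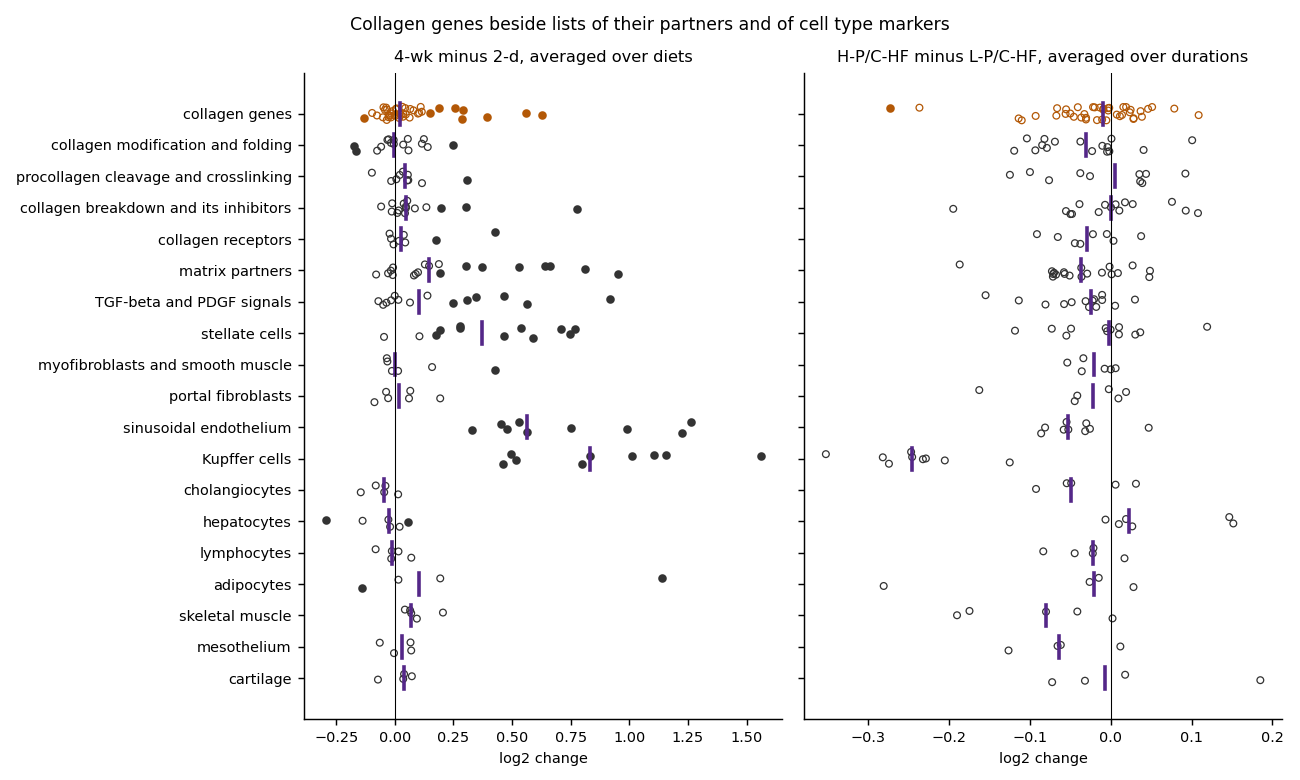
Log2 changes of the 42 collagens (orange) and of each list of partner genes and cell type markers, 4-wk minus 2-d averaged over diets (left) and the diet difference (H-P/C-HF less L-P/C-HF) averaged over durations (right), on different scales. Each point is a gene, filled where its adjusted p was under 0.05, and bars mark medians: with duration the stellate, endothelial and Kupffer lists have medians of 0.37, 0.56 and 0.83, beside 0.02 for the collagens.

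Markers of stellate, sinusoidal endothelial and Kupffer cells rose with duration, as did 8 of the 42 collagens. Where 9.68% of all genes rose and 5.34% fell, 10 of 12 stellate cell markers rose (median 0.37), among them Lrat, which stores vitamin A esters (0.71), and Rgs5 (0.77), and 9 of 9 sinusoidal endothelial markers rose (median 0.56), with Stab2 at 0.48. All 9 Kupffer cell markers rose (median 0.83), with Clec4f at 0.83. The mean signal of the stellate list ranged from 8.37 to 8.79 in H-P/C-HF 4-wk and from 8.43 to 8.91 in L-P/C-HF 4-wk mice, against 7.98 to 8.42 in H-P/C-HF 2-d and 8.12 to 8.57 in L-P/C-HF 2-d mice. That of the endothelial list ranged from 8.14 to 9.20 in H-P/C-HF 4-wk and from 8.24 to 9.18 in L-P/C-HF 4-wk mice, against 8.0 to 8.53 in H-P/C-HF 2-d and 8.02 to 8.69 in L-P/C-HF 2-d mice. That of the Kupffer list ranged from 8.46 to 9.97 in H-P/C-HF 4-wk and from 9.12 to 10.62 in L-P/C-HF 4-wk mice, against 8.32 to 9.20 in H-P/C-HF 2-d and 8.30 to 9.47 in L-P/C-HF 2-d mice. The marker lists were likewise chosen with earlier results of these data known, and the part of these cells in the collagen rises was not tested.

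Other cell types gave few calls, to be read against the same shares over all genes (9.68% higher, 5.34% lower). Of 6 myofibroblast and smooth muscle genes 1 rose, Tagln (0.43), while Acta2, the marker of activated stellate cells, had -0.03 (limma, adjusted p = 0.807). None of 6 portal fibroblast, 5 cholangiocyte, 5 lymphocyte, 5 skeletal muscle, 4 mesothelial or 4 cartilage markers passed. Of 4 adipocyte genes Fabp4, which macrophages and endothelium also express, rose by 1.14 and Lep fell by 0.14. Of 6 hepatocyte genes Hnf4a fell by 0.29 and Ttr rose by 0.06, and the list lay between 13.30 and 13.90 in every mouse. With diet all 9 Kupffer markers had negative changes averaged over durations (median -0.25) and none passed.

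RNA quality also moved with duration. The excess of the 3' over the 5' control signal for beta-actin and Gapdh, which grows as RNA degrades, had medians of 0.25 in H-P/C-HF 4-wk and 0.24 in L-P/C-HF 4-wk mice, against 0.45 in H-P/C-HF 2-d and 0.44 in L-P/C-HF 2-d mice. With this measure as a covariate 4 collagens still rose averaged over diets, with Col14a1 at 0.62, Col3a1 at 0.56, Col4a2 at 0.38 and Col1a2 at 0.26 (limma, highest adjusted p = 0.0342). Col4a1 (0.21, adjusted p = 0.0702), Col6a3 (0.23, adjusted p = 0.0909), Col5a2 (0.13, adjusted p = 0.527), Col13a1 (0.14, adjusted p = 0.629) and Col18a1 (-0.12, adjusted p = 0.324) no longer passed. With the covariate 3 collagens rose in H-P/C-HF and 1, Col14a1, in L-P/C-HF. The shares of all genes that passed with the covariate are not given here, so the lower counts are not shown to be particular to collagens. Col27a1 kept its diet change (-0.27, adjusted p = 0.0387). The changes of the partner and marker genes above are given without this covariate.

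Finally, 10 pairs of genes were correlated over the 47 mice after the mean of each group was taken away, so that differences between diets and durations play no part. Mice with more Col4a1 also had more Col4a2 (Pearson r = 0.41, Spearman rho = 0.37, permutation p = 0.00393 and 0.0133, adjusted over the 10 pairs 0.0131 and 0.0443). Within the groups r was 0.44 in H-P/C-HF 4-wk, 0.63 in L-P/C-HF 4-wk, 0.38 in H-P/C-HF 2-d and 0.26 in L-P/C-HF 2-d, and without the 2 mice farthest from the Col4a1 median it was 0.34. Col4a1 also followed the endothelial marker Stab2 (r = 0.45, rho = 0.39, permutation p = 0.00289 and 0.0102, adjusted 0.0131 and 0.0443). There r was 0.65 in H-P/C-HF 4-wk, 0.51 in L-P/C-HF 4-wk, 0.10 in H-P/C-HF 2-d and 0.41 in L-P/C-HF 2-d mice, and 0.35 without the 2 farthest mice. With cyclic loess in place of the deposited scaling these 2 correlations were 0.22 and 0.35 and no longer passed. No correlation was run for the dimmer Col4a1 probe set. Col4a1 and Col18a1 did not covary detectably (r = -0.07, rho = -0.04, permutation p = 0.644 and 0.798, adjusted 0.92 and 0.896), nor did Col3a1 and Col5a2 pass (r = 0.28, rho = 0.31, p = 0.114 and 0.0604, adjusted 0.19 and 0.111).

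For Col1a1 the probe set decided the outcome. Its 2 probe sets, both below the median signal, did not follow each other over mice (r = -0.0069). On the brighter probe set Col1a1 did not follow its partner chain Col1a2 (r = -0.0018, rho = 0.02, permutation p = 0.991 and 0.904, adjusted 0.991 and 0.904) or Col3a1 (r = -0.04, rho = -0.05, p = 0.821 and 0.742, adjusted 0.991 and 0.896). It followed Col6a1 instead (r = 0.53, rho = 0.45, p = 0.00029 and 0.00269, adjusted 0.0029 and 0.0269), with r between 0.34 and 0.69 within the groups and 0.46 without the 2 farthest mice. On the dimmer probe set, examined after these values were seen, Col1a1 followed Col1a2 (r = 0.68, rho = 0.67, permutation p = 2e-05 and 1e-05, adjusted 0.0001 and 5e-05) and Col3a1 (r = 0.67, rho = 0.64, p = 1e-05 each, the smallest the permutations can give, adjusted 0.0001 and 5e-05). With Col1a2, r was 0.64 in H-P/C-HF 4-wk, 0.84 in L-P/C-HF 4-wk, 0.52 in H-P/C-HF 2-d and 0.48 in L-P/C-HF 2-d mice, and 0.64 without the 2 farthest mice. With Col3a1, r was 0.55 in H-P/C-HF 4-wk, 0.82 in L-P/C-HF 4-wk, 0.30 in H-P/C-HF 2-d and 0.67 in L-P/C-HF 2-d mice, and 0.60 without the 2 farthest mice. The 2 genes of a pair were measured on the same arrays and share their scaling.

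**Figure D5:**
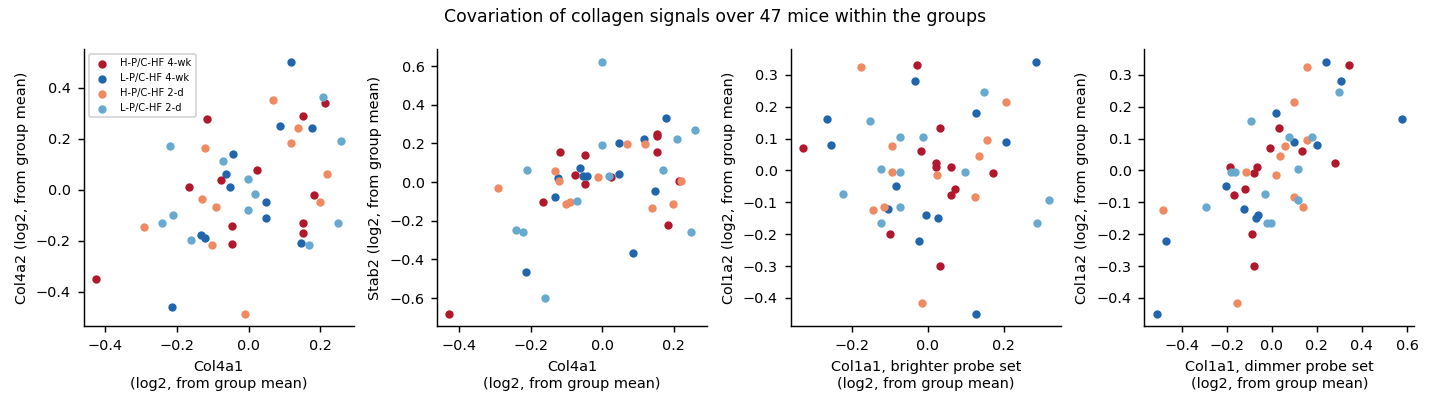
Each point is 1 of 47 mice, placed by its log2 signals of 2 genes after the mean of its group was subtracted, in colours for the 4 groups. Col4a1 rises with Col4a2 (r = 0.41) and Stab2 (r = 0.45), and Col1a2 follows the dimmer Col1a1 probe set (r = 0.68) but not the brighter one (r = -0.0018).

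The remaining Col1a1 pairs on the brighter probe set were weaker. Col1a1 and Acta2 had r = 0.37 and rho = 0.34 (permutation p = 0.0176 and 0.0245, adjusted 0.044 and 0.0613), with r = -0.12 in H-P/C-HF 4-wk, 0.42 in L-P/C-HF 4-wk, 0.51 in H-P/C-HF 2-d and 0.57 in L-P/C-HF 2-d, and 0.44 without the 2 farthest mice. Col1a1 and Lrat had r = -0.30 and rho = -0.28 (p = 0.0601 and 0.0669, adjusted 0.12 and 0.111), and Col1a1 and Col4a1 had r = -0.01 and rho = -0.04 (p = 0.946 and 0.807, adjusted 0.991 and 0.896). On the dimmer probe set Col1a1 followed Col4a1 (r = 0.38, rho = 0.36, permutation p = 0.00465 and 0.0129, adjusted 0.0093 and 0.0271), with r between 0.17 and 0.77 within the groups and 0.33 without the 2 farthest mice. There Col1a1 and Col6a1 no longer passed (r = 0.18, rho = 0.27, adjusted p = 0.355 and 0.114), and Col1a1 and Acta2 (r = -0.04) and Col1a1 and Lrat (0.17) did not pass either.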

How the data were processed

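Gene expression in 48 livers was measured with Affymetrix arrays for the mouse. The deposited log2 values, with 2 decimals, were made by the authors with RMA, which corrects background, normalizes the arrays against each other and summarises the probes of a set, and the log base, which they do not state, was inferred from how high the signals reach. Mice labelled HPHC were assigned to the H-P/C-HF diet and those labelled HFHC to L-P/C-HF. Genes were named from GEO's platform annotation: of 45101 probe sets 34945 had 1 symbol, 932 several and 9160 none, and 64 controls were left out.

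A linear model with 1 coefficient per group was fitted to 47 arrays by limma 3.58.1 in R 4.3.3 (lmFit, eBayes with a trend), two-sided, with Benjamini-Hochberg adjustment over 45037 probe sets in each of 7 comparisons, in place of the study's ANOVA and Global Error Assessment. Correlations used 100000 permutations within groups, two-sided. The members, the classes and the lists (157 of 167 genes measured) were chosen with earlier results of these data known. Named were the collagens that passed anywhere, the 5 of smallest p in each comparison, the 3 brightest of each class, and up to 3 of each list of smallest p. Further list genes, some that rose and some for contrast, were named after their values were seen. The fit was tested on simulated data. Alternatives were B25 included; A01, A09 and A24 left out; array weights; median centring; cyclic loess; probe sets above the median signal alone; separate fits; no trend; an RNA quality covariate; the replicate number as a block; ordinary ANOVA; a pooled error; the mean of a gene's probe sets; and adjustment over 1 probe set per gene. Each array is 1 mouse, so p-values weigh group differences against a spread that holds mouse and array differences together. The number of mice sets the precision.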

Additional observations from a re-analysis of the deposited data

Results flagged for a closer look

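Array B25, which was left out of the fit and enters only the alternatives that name it or use all 48 arrays, had 8 of 42 collagens above every L-P/C-HF 2-d array, and 7 below every one of them. The share of all genes outside that range in B25 was not counted, so these counts are not shown to be particular to collagens. B25 also had the lowest mean correlation with the other arrays (0.9759). The signals in B25 were 8.0 for Col10a1, 8.84 for Col15a1, 5.66 for Col19a1, 7.11 for Col1a1, 8.39 for Col2a1, 8.64 for Col4a3, 5.81 for Col4a5 and 8.91 for Col6a1, against highest L-P/C-HF 2-d values of 7.82, 8.83, 5.34, 6.92, 8.33, 8.50, 5.67 and 8.73 in the same order of genes. Apart from Col15a1 these signals also exceeded all other 47 arrays. On the brightest probe sets, no collagen that changed with duration or diet is among the 8, but 5 of the 7 lower ones are: B25 had 9.03 for Col27a1, 7.27 for Col3a1, 8.45 for Col4a1, 6.67 for Col5a2 and 6.18 for Col13a1, against lowest L-P/C-HF 2-d values of 9.40, 7.31, 8.52, 6.75 and 6.31 in the same order of genes. The others were Col11a2 and Col25a1. Within its own H-P/C-HF 2-d group, B25 was below every other array for Col27a1, Col5a2 and Col13a1 (lowest 9.19, 6.73 and 6.20). For Col3a1 and Col4a1 it lay inside the range of that group, whose lowest values were 7.19 and 8.40. With B25 included these 5 calls kept their direction and passed (limma), with changes of -0.29 for Col27a1 with diet averaged over durations and, with duration averaged over diets, 0.57 for Col3a1, 0.30 for Col4a1, 0.16 for Col5a2 and 0.20 for Col13a1. No difference between groups in the effect of diet or duration passed its test, and groups of 11 and 12 mice were not tested for single outlying samples.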

How the results depend on the processing

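The directions of the collagens that passed were kept under every alternative run. Col14a1 passed under all of them, with a rise between 0.61 and 0.65 averaged over diets, and so did Col3a1 (0.38 to 0.58), Col4a2 (0.38 to 0.43) and Col1a2 (0.13 to 0.29), whereas Col5a2 (0.03 to 0.17) passed under 9 of 12 and Col13a1 (0.14 to 0.21, adjusted p up to 0.629) under 7 of 11. In H-P/C-HF the fall of Col18a1 (-0.20 to -0.14, adjusted p up to 0.339) passed under 7 of 13. Counts of collagens that changed moved by over 1.5 times with the RNA quality covariate, to 4 averaged over diets, 3 in H-P/C-HF and 1 in L-P/C-HF, against 9, 5 and 6 without it. Array weights over all 48 arrays, B25 among them, gave 8 in H-P/C-HF, and B25 included with equal weights gave 6. For diet averaged over durations, where Col27a1 alone passed, the count was 0 without A01, A09 and A24, 0 with ordinary ANOVA (adjusted p = 0.0654) and 2 with a pooled error. With the probe sets above the median signal alone the median change of the type IV class was 0.16 averaged over diets, 0.14 in H-P/C-HF and 0.18 in L-P/C-HF, since 2 dim chains drop out. The cause of the other shifts was not tested. Shares over all genes are not given for these alternatives, so a shift in a count is not shown to be particular to collagens.

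Among the correlated pairs, Col1a1 and Lrat passed with B25 included (r = -0.38). Col1a1 and Acta2 no longer passed without A01, A09 and A24 (r = 0.27) or with cyclic loess (0.39), where Col4a1 and Col4a2 (0.22) and Col4a1 and Stab2 (0.35) were lost too. With the dimmer Col1a1 probe set, chosen after seeing the data, r was 0.68 with Col1a2, 0.67 with Col3a1 and 0.38 with Col4a1, which passed, and 0.18 with Col6a1 and -0.041 with Acta2, which did not.

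The replicate numbers of the labels do not pair the mice: 22 of 69 pairs of arrays with equal numbers had a correlation of residuals over 0.1, and 3 arrays were closest to one of their own number. With the replicate number as a block 8 collagens changed with duration averaged over diets (Col13a1 was lost, adjusted p = 0.0506), 5 in H-P/C-HF and 6 in L-P/C-HF, and 1 with diet. The shares over all genes with this block are not given here.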
